A study of Mus musculus with 8 samples.

Results

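The genes of mitosis and cytokinesis described here are 50 named genes of the machinery that condenses, attaches, checks and separates chromosomes and then divides the cell. They were chosen by symbol, each symbol matched 1 Ensembl gene of the 48440 in the table through GENCODE M21 (GRCm38), and all 50 passed the filter on low counts. RNA was sequenced from whole livers of 4 neonatal CD1 mice with a germline deletion of Myo5b (animals 275, 276, 277 and 278) and of 4 control littermates labelled heterozygous or wildtype (animals 279, 280, 281 and 282). The pups were killed between 3 and 8 days after birth. The labels do not give each pup's age, sex or litter, nor which controls were heterozygous. The deletion is germline, so every cell type of the knockout liver lacks intact Myo5b, and control livers can carry 1 mutant allele.

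Cells enter mitosis when cyclin B and its kinase CDK1 are switched on, build a spindle of microtubules, attach each chromosome to it through a kinetochore, and wait at the spindle checkpoint until every chromosome is attached. The anaphase-promoting complex then marks securin and cyclin B for destruction, separase opens the cohesin rings, and a central spindle directs the ring that pinches the cell apart. Most of these genes are transcribed mainly in the G2 and M phases, so their mRNA is found mainly in dividing cells. In the liver of a newborn mouse, both hepatocytes and the remaining foetal blood precursors divide. In RNA from a whole organ, fewer dividing cells and less of these mRNAs per cell cannot be told apart.

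Library totals ran from 14228268 to 18398039 counts, and the 50 genes held between 37 and 25389 counts in a library. Myo5b (chromosome 18, 74440936 to 74771493) was at 47.3, 43.1, 47.5 and 59.5 CPM (a gene's counts relative to the library total, scaled between libraries by TMM) in the knockout livers and at 172, 144, 121 and 94.0 CPM in the control livers. Its log2 fold change was -1.43 (SE 0.18; adjusted p = 0.000314, edgeR), and no knockout value reached a control value. The hepatocyte genes Alb, Apoa1 and Hnf4a were detected in every library, and Alb was lower in knockout livers (-1.08, SE 0.11). The mean log2 CPM of 4 Y-linked genes was 5.701 in knockout 277, 5.705 in control 279 and 5.667 in control 281. It was -3.02 to -2.44 in the other livers, so by these genes the sexes were not balanced between the groups. Across the 18274 genes tested, 20.7% passed an adjusted p of 0.05, with 11.4% lower and 9.27% higher in knockout livers. The median log2 fold change of all tested genes was 0.01.

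A shared feature of these genes that does not depend on the counts is their promoter sequence. Many G2 and M phase genes carry a CHR element close to the start of transcription and CCAAT boxes upstream of it. The CHR is bound by the MuvB core, with B-MYB and FOXM1 in dividing cells and with the DREAM repressor in resting ones, and the CCAAT box by NF-Y. RefSeq promoter windows on GRCm38.p6, from 250 bases before to 50 after the start, were at hand for 42 of the 50 members. The letters TTTGAA, searched on both strands, occurred in 30 of the 42 (71.4%), against 20.2% of all 27025 genes with such windows. CCAAT, also on both strands, occurred in 30 of the 42 (71.4%), against 41.1% of all genes, and both motifs in 59.5%, against 7.97%. In the 250 bases before the start alone the shares were smaller, with TTTGAA in 33.3% of members, against 18.3% of all genes, and both motifs in 31.0%, against 6.45%. Of the 41 TTTGAA matches in member windows, 75.6% began within 50 bases of the start, whereas 25.3% of the matches over all windows did. A match is a run of letters and not a shown binding site.

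The last 120 bases before the start are printed for 6 members that hold both motifs there. They are shown so that both motifs can be read in place, and they are not typical of the members, whose TTTGAA matches lie mostly after the start. Each is written 5′ to 3′ on the gene's strand, with CCAAT (or its complement ATTGG) and TTTGAA (or TTCAAA) in capitals.
Cdk1 (chr10:69352913-69353032, minus strand): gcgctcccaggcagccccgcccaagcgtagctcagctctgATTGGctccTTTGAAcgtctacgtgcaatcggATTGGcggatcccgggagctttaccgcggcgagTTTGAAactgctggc
Cdc20 (chr4:118437344-118437463, minus strand): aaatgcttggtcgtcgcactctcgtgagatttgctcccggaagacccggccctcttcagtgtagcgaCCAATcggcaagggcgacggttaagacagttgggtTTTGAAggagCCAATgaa
Espl1 (chr15:102296173-102296292, plus strand): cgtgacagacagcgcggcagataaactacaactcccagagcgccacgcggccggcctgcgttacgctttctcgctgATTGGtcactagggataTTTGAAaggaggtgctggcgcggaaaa
Kif11 (chr19:37376262-37376381, plus strand): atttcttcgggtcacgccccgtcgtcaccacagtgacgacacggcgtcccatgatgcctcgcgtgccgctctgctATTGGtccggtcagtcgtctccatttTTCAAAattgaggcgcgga
Ect2 (chr3:27153879-27153998, minus strand): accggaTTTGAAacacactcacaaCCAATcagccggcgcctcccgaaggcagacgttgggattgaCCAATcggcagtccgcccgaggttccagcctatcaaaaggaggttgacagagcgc
Top2a (chr11:99024190-99024309, minus strand): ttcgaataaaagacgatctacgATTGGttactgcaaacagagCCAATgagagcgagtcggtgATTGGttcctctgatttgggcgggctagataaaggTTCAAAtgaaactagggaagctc
In 5 of the 6 a CHR match begins between 15 and 27 bases before the start, and a CCAAT box 44 to 58 bases before the start. Ect2 departs from this, with its upstream CHR match 114 bases before the start and CCAAT boxes at 96 and 55. Members with more than 30 exon bases (GENCODE M21) in the 120 were not printed, among them Ube2c and Prc1. Both genes hold the motifs there too, with CHR matches 29 bases before the start in Ube2c and 5 or 30, by window, in Prc1. The starts are those of RefSeq. GENCODE M21 places 26 of the printed bases of Cdk1, 9 of Cdc20 and 27 of Espl1 in exons, so the CHR matches at 15 in Cdk1 and 27 in Espl1 lie within an exon of that annotation.

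**Figure D1:**
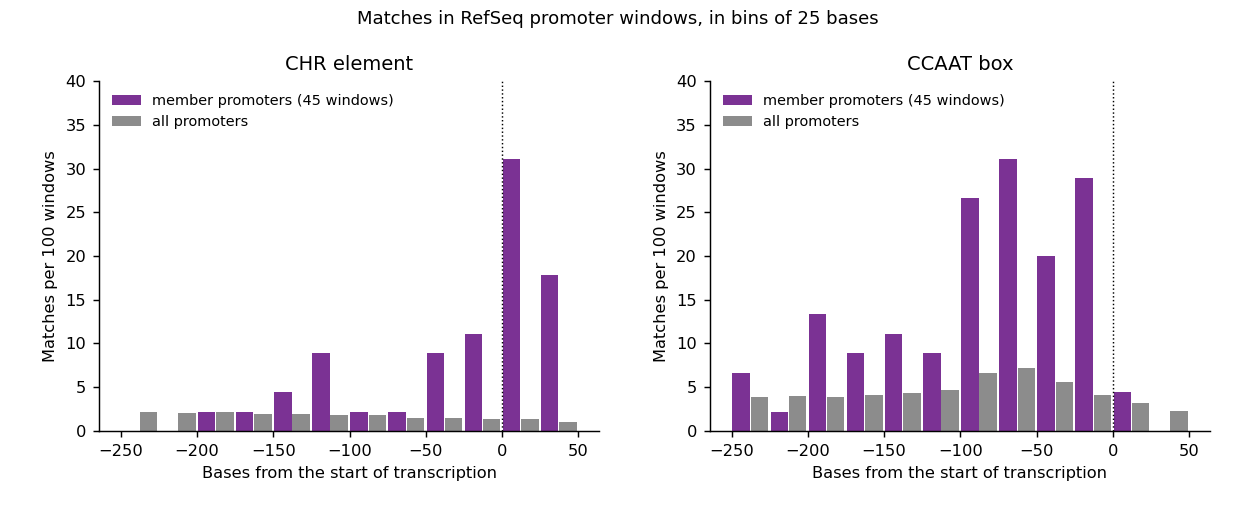
Matches of the CHR element (left) and the CCAAT box (right) per 100 promoter windows, in bins of 25 bases along the distance from the start of transcription, for the 45 windows of 42 members (purple) and for all windows (grey). CHR matches of members peak in the first bin after the start, at 31.1 per 100 windows against 1.31 for all windows, and CCAAT matches lie mostly upstream of it.

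The mRNA of this machinery was lower in knockout livers almost throughout. Of the 50 genes, 48 fell at an adjusted p under 0.05 in edgeR's quasi-likelihood test, against a background of 11.4%, and 31 of them fell more than 2-fold, against 3.68% of all genes. None was higher (0 also at an unadjusted p under 0.05, in DESeq2 and in limma-voom). DESeq2 and limma-voom each called 48 lower, where 11.8% and 12% of all genes were called lower, and 10.2% and 10% higher, by these tools. With a required change of 1.5-fold, 35 of the 50 were called lower, against 2.74% of all genes. In 45 genes every knockout value lay below every control value, which 12.8% of all tested genes did. The median log2 fold change of the 50 was -1.10, with a range of -1.76 to -0.30. Summed over the 50 genes, the knockout livers held 1913, 2024, 1662 and 2307 CPM and the control livers 4811, 3748, 4478 and 4723 CPM. The ranges are well apart. Among knockouts animal 278 was highest and 277 lowest, and among controls 280 was lowest.

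**Figure D2:**
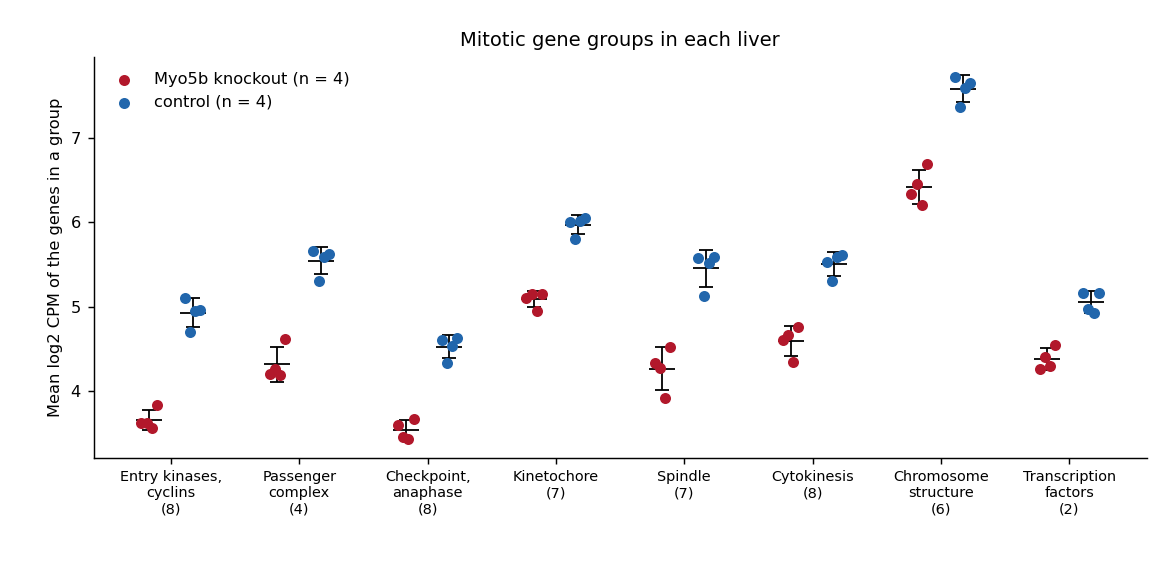
Mean log2 CPM of the genes in each of 8 role groups (number of genes in brackets), with 1 point per liver and bars for the mean and SD of 4 livers, knockout left of control. In every group the 4 knockout livers lie below the 4 control livers.

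Erythroid genes moved with these genes and are given before the single members. Foetal erythroblasts divide in the newborn liver, and of 24 erythroid markers 23 fell, with a median log2 fold change of -1.87. Their summed level was 2276 to 4693 CPM in knockout livers and 9276 to 12250 CPM in control livers, and none of the 24 was at 0 in any library (Hba-a1, an alpha-globin gene, averaged 1049 CPM in knockout and 3442 CPM in control livers). The mean log2 CPM of the 24 markers was 4.67, 4.71, 5.12 and 5.76 in knockouts 277, 275, 276 and 278, and that of the 50 mitotic genes was 4.31, 4.48, 4.49 and 4.67 in the same animals. The order of the 4 knockout livers is the same in both measures. Controls 280, 281, 282 and 279 had 6.68, 6.81, 7.12 and 7.12 for the markers and 5.33, 5.58, 5.64 and 5.65 for the mitotic genes. With the marker mean as a covariate, edgeR called 0 of the 50 genes at an adjusted p under 0.05. Of all genes, 0.246% were called in either direction and 0.109% lower at that threshold. At an unadjusted p under 0.05, 9 of the 50 were lower and 0 higher. The share of all genes at the unadjusted threshold was not counted. In that fit 44 of the 50 log2 fold changes were negative. The median over the 50 was -0.51, against 0.004 over all tested genes, and the median SE was 0.34 against 0.14 without the covariate. Genotype and marker mean correlated at -0.94 over the 8 libraries, so the variance of the genotype term was inflated 8.56-fold, and the part of erythroid cells and that of genotype cannot be told apart by this fit.

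Other cell types were measured too, against a background of 11.4% of all tested genes called lower and 9.27% called higher. Of 12 macrophage markers 11 rose (summed level 1647 to 1917 CPM in knockout and 923 to 1060 CPM in control livers), and 8 of 10 endothelial markers rose (1292 to 1536 and 1013 to 1084 CPM). Of 12 hepatocyte markers 4 fell and 1 rose, with a median log2 fold change of -0.02. Their mean log2 CPM overlapped, at 11.18 to 11.46 in knockout livers and 11.43 to 11.81 in control livers. Their summed level was 88720 to 101200 CPM in knockout livers and 110900 to 139800 CPM in control livers, without overlap. That sum averaged 95600 CPM in knockout and 129200 CPM in control livers, and its gap lay in albumin (Alb), which averaged 32560 and 68620 CPM. Albumin was at 27250 to 36870 CPM in knockout livers and 57170 to 76290 CPM in control livers. Ttr (-0.97), Cps1 (-0.78) and Tdo2 (-1.94) also fell, and Ahsg rose (0.37). Megakaryocyte markers fell in 3 of 9 cases. All 9 neutrophil markers overlapped between the groups, and 1 of them, Ltf, passed as lower (-0.44). Of 9 tested markers of B cell precursors, which also divide in newborn liver, 3 fell and 1 rose. Among those that fell, Igll1 had 0 to 0.256 CPM in knockout livers and 1.07 to 2.74 CPM in control livers, and Vpreb1 0 to 0.211 CPM in knockout and 0.670 to 0.844 CPM in control livers. Rag1 fell as well (-1.48, SE 0.40), with overlap. The summed level of the B precursor list overlapped between the groups. Of 10 stellate cell markers 2 fell and 4 rose, and all 7 cholangiocyte markers overlapped between the groups, with adjusted p of 0.173 (Sox9) or more in edgeR. The part of these cell types in the results below was not tested.

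**Figure D3:**
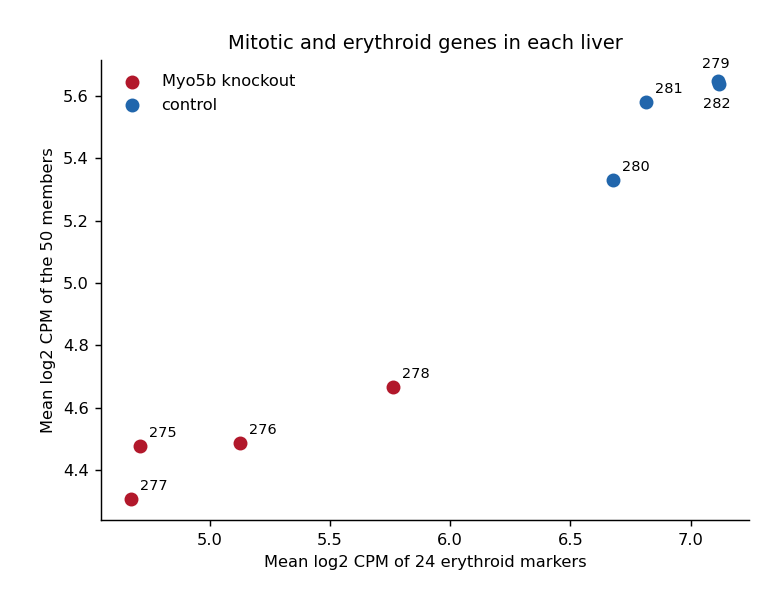
Mean log2 CPM of the 50 mitotic genes against that of 24 erythroid markers, with 1 labelled point per liver. Knockout livers (red) and control livers (blue) lie apart on both axes, with knockout 278 the nearest knockout to the controls and control 280 the nearest control to the knockouts.

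The genes that start mitosis fell in all 8 cases, with a group median of -1.23. That was the lowest of the 8 groups, but the order was not stable. Without control 279 the spindle median was lower (-1.17 against -1.16), without control 280 the passenger median (-1.28 against -1.27), and with the erythroid covariate the checkpoint median (-0.72 against -0.69). Cdc25b (chromosome 2, 131186949 to 131198497), a phosphatase that activates CDK1, was at 21.1, 22.6, 22.2 and 35.1 CPM in knockout livers and at 91.3, 79.4, 74.5 and 97.1 CPM in control livers. It had the largest fall of the 50, with a log2 fold change of -1.76 (SE 0.16; adjusted p = 6.90e-06, edgeR), and knockout 278 stood above the other knockouts. Ccna2 (chromosome 3, 36564865 to 36572150), the cyclin A of S phase and mitotic entry, had 29.3, 31.1, 30.6 and 41.2 CPM in knockouts and 89.0, 65.6, 87.5 and 90.3 CPM in controls. Its log2 fold change of -1.33 (SE 0.13) carried the smallest adjusted p of the group (2.81e-06, edgeR), and the groups did not overlap. The kinase gene Cdk1 itself (chromosome 10, 69335146 to 69352938) fell least of the 8. It had 19.9, 17.9, 17.4 and 18.5 CPM in knockouts and 37.9, 30.5, 37.8 and 42.2 CPM in controls, a log2 fold change of -1.01 (SE 0.12). The cyclin B genes Ccnb1 (-1.16, SE 0.17) and Ccnb2 (-1.20, SE 0.12) fell close to their kinase. The CPM ratio of Ccnb1 to Cdk1 averaged 0.448 in knockout and 0.500 in control livers, and its ranges overlapped.

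Polo-like kinase 1 (Plk1, -1.25, SE 0.15) and Aurora A (Aurka, -1.46, SE 0.16), which mature the centrosomes, fell as well. Cdc25c, the phosphatase that acts with CDC25B, was the scarcest member per length of transcript, at 0.602 ± 0.147 CPM per kb in knockout and 1.28 ± 0.450 CPM per kb in control livers (SD, n = 4). It had 2.78, 3.96, 2.84 and 2.25 CPM in knockouts and 9.16, 3.89, 6.65 and 5.54 CPM in controls. Knockout 276 and control 280 thus overlapped, and its fall of -1.09 (SE 0.29; adjusted p = 0.0112, edgeR) lost the call without control 279 (-0.86). Another 13 genes of mitotic entry were looked up beside these. Of them 7 fell, among them the cyclin F gene Ccnf (-1.21) and the kinase gene Pbk (-1.13), while Cdc25a (-0.01, SE 0.12) and Ensa (0.07, SE 0.10) did not pass the test. Cdc25a averaged 25.3 CPM in knockout and 25.5 CPM in control livers, whereas its relative Cdc25b averaged 25.3 CPM in knockout and 85.6 CPM in control livers.

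The chromosomal passenger complex, which corrects faulty attachments and later marks the division plane, fell in all 4 genes (median -1.18). Birc5 (chromosome 11, 117849251 to 117855743), which encodes survivin, had 14.5, 16.9, 15.5 and 23.7 CPM in knockout livers and 61.6, 50.2, 54.8 and 54.3 CPM in control livers. Its log2 fold change was -1.65 (SE 0.14; adjusted p = 9.68e-07, edgeR), the smallest adjusted p of all 50 genes. The scaffold gene Incenp fell least, to 50.2, 57.1, 52.0 and 64.5 CPM in knockouts, against 112, 92.5, 101 and 118 CPM in controls (-0.92, SE 0.10). The CPM ratio of Birc5 to Incenp was 0.289 to 0.367 in knockout livers and 0.459 to 0.552 in control livers, without overlap. The pair joins the largest and the smallest fall of the complex and was picked after its values were seen, so a lower ratio followed from the choice. The kinase gene Aurkb (-1.24) and the borealin gene Cdca8 (-1.12) lay between them.

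Genes of the spindle checkpoint and of the exit into anaphase fell in 7 of 8 cases (median -1.003). Ube2c, the ubiquitin-conjugating enzyme of the anaphase-promoting complex, had 17.6, 18.9, 17.1 and 24.3 CPM in knockout livers and 60.0, 45.3, 46.1 and 59.8 CPM in control livers (-1.44, SE 0.14; adjusted p = 2.25e-06, edgeR). Of its exon bases 22.8% overlap Tnnc2 on the other strand, and since the strand setting of the counts is not stated, reads of the pair cannot be told apart there. Cdc20, the activator of the complex, fell by 1.35 (SE 0.15). The checkpoint kinase genes Bub1 (-0.99) and Ttk (-0.71) and the inhibitor genes Bub1b (-1.02) and Mad2l1 (-0.73) fell less than these by their estimates. Espl1, the protease separase, fell by 1.15 (SE 0.17).

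Its inhibitor securin, Pttg1 (chromosome 11, 43420250 to 43426251), did not pass the test. It had 8.64, 6.97, 5.06 and 5.28 CPM in knockout livers and 9.81, 6.91, 11.1 and 9.47 CPM in control livers (log2 fold change -0.52, SE 0.22; adjusted p = 0.100, edgeR). The groups overlapped at knockouts 275 and 276 and control 280, and without knockout 275 the gene passed (-0.69; adjusted p = 0.0441, edgeR). The CPM ratio of Espl1 to Pttg1 was 1.22, 2.13, 2.55 and 3.36 in knockouts and 3.52, 3.43, 2.58 and 3.91 in controls, so it overlapped too. Of 11 other checkpoint genes 7 fell, with Sgo1 (-1.16), a protector of centromeric cohesin, and Kntc1 (-1.09) having the smallest p, while Zw10 (-0.05) and Mad1l1 (-0.07) did not pass. Of 17 other genes of the anaphase-promoting complex and its partners 6 fell. The inhibitor gene Fbxo5 (-1.47, SE 0.15) and the activator gene Fzr1 (-0.82, SE 0.12) had the smallest p, and the subunit genes Cdc26 (-0.04) and Anapc13 (-0.05) were nearest to 0.

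Kinetochore genes fell in 6 of 7 cases, with a median of -1.04 and the widest range within a group (-1.28 to -0.30). Nuf2 (chromosome 1, 169497934 to 169531464), a subunit of the NDC80 complex that grips microtubules, had 12.5, 13.4, 14.1 and 14.5 CPM in knockout livers and 33.6, 31.1, 31.9 and 35.2 CPM in control livers (-1.28, SE 0.12; adjusted p = 1.44e-06, edgeR). The spread within each group was small and the groups were far apart. Its partners Ndc80 and Spc25 in the same complex fell less by their estimates. Ndc80 fell by 0.81 (SE 0.15) and Spc25 by 0.53 (SE 0.10), while Spc24, the fourth subunit and not one of the 50, fell by 1.27 (SE 0.16). The CPM ratio of Nuf2 to Spc25 was 0.243 to 0.358 in knockout livers and 0.445 to 0.497 in control livers. For Spc24 to Spc25 it was 0.154 to 0.219 in knockout livers and 0.220 to 0.342 in control livers, nearly touching. Both ratios were lower in every knockout liver, a description of genes picked after their values were seen.

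Cenpa (chromosome 5, 30666777 to 30674830), the histone H3 variant that marks the centromere, had the smallest change of the 50. It had 33.1, 27.4, 30.1 and 28.4 CPM in knockout livers and 37.1, 33.0, 38.5 and 37.4 CPM in control livers, and the groups met at knockout 275 and control 280. The log2 fold change of -0.30 (SE 0.11; adjusted p = 0.0571, edgeR) passed without knockout 275 (-0.35; adjusted p = 0.0420, edgeR) or control 280 (-0.34; adjusted p = 0.0467, edgeR). The large outer kinetochore proteins Cenpe (-1.04, SE 0.11), a motor, and Cenpf (-1.16, SE 0.12) fell, as did the scaffold gene Knl1 (-1.07, SE 0.11). Among 26 further kinetochore genes 15 fell, with the smallest p for Spc24 and Cenpm (-1.65, SE 0.22). Cenpo (-0.09) and Mis12 (-0.21) were nearest to 0. Zwint had a positive estimate (0.56, SE 0.22; adjusted p = 0.124, edgeR), which did not pass in edgeR but was called higher by DESeq2 and limma-voom.

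All 7 spindle genes fell, with a median of -1.19. Tpx2, which nucleates microtubules near chromosomes and activates Aurora A, had 47.3, 37.3, 33.9 and 48.0 CPM in knockout livers and 98.6, 84.3, 101 and 95.8 CPM in control livers (-1.19, SE 0.11; adjusted p = 2.37e-06, edgeR). Gtse1, a microtubule-binding protein that stabilises the spindle, had the lowest estimate of the group, at -1.55 (SE 0.24). The motor genes Kif11 (-1.11), which pushes the poles apart, and Kif4 (-1.24), which works on chromosome arms, fell too, as did Hmmr (-1.34) and Nusap1 (-0.99), which bind microtubules. Kif4 shares 15.1% of its exon bases with Pdzd11 on the other strand.

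Kif2c (chromosome 4, 117159639 to 117182639), a kinesin that takes microtubules apart at the centromere, was the least certain call of the 50. It had 10.8, 12.6, 5.53 and 10.3 CPM in knockout livers and 15.4, 11.8, 19.1 and 26.9 CPM in control livers. Knockout 276 lay above control 280, and the log2 fold change of -0.90 (SE 0.29) came with an adjusted p of 0.0484 in edgeR. Leaving out 1 animal ended the call in 6 of 8 cases: knockout 275 (-0.95), knockout 277 (-0.71), knockout 278 (-0.93), control 279 (-0.98), control 281 (-0.89) and control 282 (-0.66). Of 28 other spindle genes 22 fell. Tacc3 (-1.14, SE 0.11) and Spag5 (-1.12, SE 0.12), which hold kinetochore fibres together, had the smallest p, and Numa1 (0.01, SE 0.08) and Clasp1 (-0.05, SE 0.09), which also serve cells outside mitosis, did not pass.

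Cytokinesis genes fell in all 8 cases and by a smaller median (-0.91). Prc1 (chromosome 7, 80294450 to 80316259), which bundles the antiparallel microtubules of the central spindle, had 28.3, 31.8, 26.5 and 34.5 CPM in knockout livers and 67.7, 57.5, 71.5 and 73.0 CPM in control livers (-1.16, SE 0.11; adjusted p = 2.18e-06, edgeR). The groups did not overlap. The related kinesin genes Kif20a and Kif20b differed. Kif20b had 35.7, 28.4, 26.3 and 29.3 CPM in knockouts and 43.2, 36.8, 46.3 and 49.2 CPM in controls (-0.55, SE 0.12), while Kif20a fell by 1.20 (SE 0.12). The CPM ratio of Kif20a to Kif20b was 0.427 to 0.595 in knockout livers and 0.720 to 0.900 in control livers. This pair too joins the largest and the smallest fall of its group and was picked after its values were seen. Of the Kif20a exon bases 29.3% overlap Cdc23 on the other strand, which averaged 24.1 CPM in knockout and 28.8 CPM in control livers and did not pass the test.

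Partners of the centralspindlin complex, Kif23 and Racgap1, fell by 0.83 (SE 0.18) and 0.99 (SE 0.15), and their ratio overlapped between groups. Ect2, the exchange factor that they bring to the cortex to switch on RhoA, fell by 0.99 (SE 0.14). Anln, which links the contractile ring to the membrane, fell by 0.82 (SE 0.11), and Cit, the citron kinase of the midbody, by 0.75 (SE 0.12). Of 20 other genes of cytokinesis 5 fell. The formin gene Diaph3 (-1.16, SE 0.15) and Arhgap11a (-0.91, SE 0.13) had the smallest p, and Kif14 (-1.004), the non-muscle myosin gene Myh10 (-0.48) and the septin gene Sept7 (-0.29) were the others. Chmp3 (0.03, SE 0.08), Sept9 (-0.06, SE 0.08), Rhoa (-0.12, SE 0.08) and Tsg101 (-0.06, SE 0.12), did not pass.

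**Figure D4:**
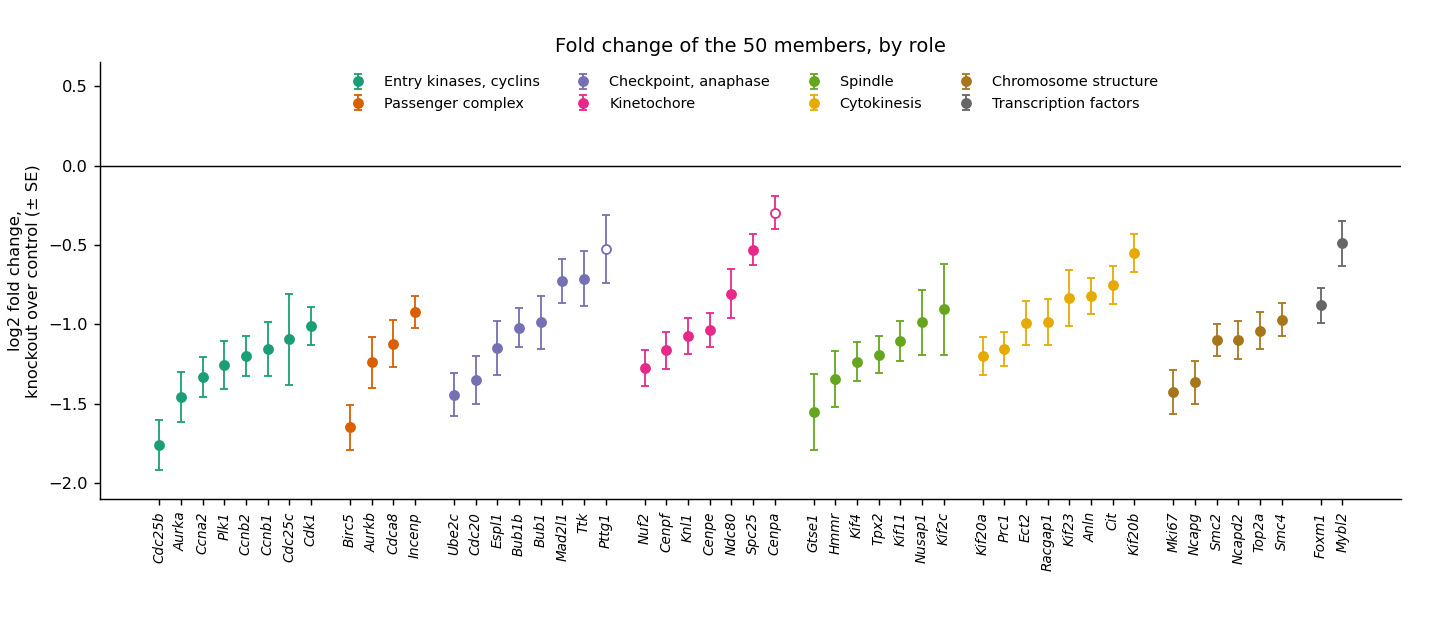
Log2 fold change (knockout over control) with its SE for each of the 50 genes, grouped by role and ordered within groups; open circles mark the genes that did not pass an adjusted p of 0.05. All 50 estimates lie below 0, from Cdc25b at -1.76 to Cenpa at -0.30, and the open circles are Pttg1 and Cenpa.

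Chromosome structure genes fell in all 6 cases (median -1.10) and include the most abundant members per length. Mki67 (chromosome 7, 135689784 to 135716361), whose protein Ki-67 coats mitotic chromosomes, had 508, 583, 426 and 681 CPM in knockout livers and 1649, 1217, 1427 and 1602 CPM in control livers. Its log2 fold change was -1.42 (SE 0.14; adjusted p = 1.19e-05, edgeR). Per length it stood at 54.6 ± 10.8 CPM per kb in knockouts and 147 ± 19.5 CPM per kb in controls (SD, n = 4), above Smc4 (18.7 and 36.6 CPM per kb) and Top2a (17.8 and 36.5 CPM per kb), which did not differ from each other beyond their spread. Of the condensin subunits, Smc2 had 56.4, 62.8, 54.1 and 66.3 CPM in knockouts and 146, 111, 133 and 123 CPM in controls (-1.10, SE 0.10; adjusted p = 1.29e-06, edgeR). Smc4, which pairs with it, had 85.3, 105, 84.4 and 114 CPM in knockouts and 206, 170, 189 and 196 CPM in controls (-0.97, SE 0.10). Their ratio overlapped between the groups. The condensin I subunits Ncapg (-1.37, SE 0.13) and Ncapd2 (-1.10, SE 0.12) and the topoisomerase Top2a (-1.04, SE 0.12) fell as well. The CPM ratio of Ncapg to Ncapd2 was 0.354 to 0.439 in knockout livers and 0.440 to 0.501 in control livers, nearly touching.

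Of 17 other genes of condensin and cohesin 10 fell. The condensin genes Ncapg2 (-1.22, SE 0.10) and Ncaph (-1.04, SE 0.16) had the smallest p. The cohesin ring genes Rad21 (-0.51), Smc3 (-0.35) and Smc1a (-0.33) fell, and the cohesin regulators Pds5b (0.02, SE 0.09) and Nipbl (0.06, SE 0.08) did not pass.

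The transcription factors of this programme fell least as a group (median -0.68 over 2 genes). Foxm1 had 18.5, 18.2, 16.3 and 19.2 CPM in knockout livers and 32.1, 31.8, 33.7 and 34.9 CPM in control livers (-0.88, SE 0.11; adjusted p = 2.70e-05, edgeR). Mybl2 (chromosome 2, 163054687 to 163084688), which encodes B-MYB, had 19.7, 24.1, 23.4 and 28.2 CPM in knockouts and 39.8, 30.8, 27.0 and 36.4 CPM in controls. Knockout 278 lay above control 281, and the fall of -0.49 (SE 0.14; adjusted p = 0.0190, edgeR) lost the call without knockout 275 (-0.41), control 279 (-0.40) or control 282 (-0.45). Of 21 other genes of the MuvB, E2F, retinoblastoma and NF-Y families 12 fell. E2f8 (-1.51, SE 0.13) and Tfdp2 (-0.83, SE 0.11) had the smallest p, E2f2 had the lowest estimate (-1.79, SE 0.27), and E2f6 (0.01) and Rbl2 (0.09) did not pass. The MuvB genes Lin9 (-0.32), Lin37 (-0.13), Lin52 (-0.29) and Lin54 (-0.38) did not pass either, and of the NF-Y genes Nfyb fell (-0.39).

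**Figure D5:**
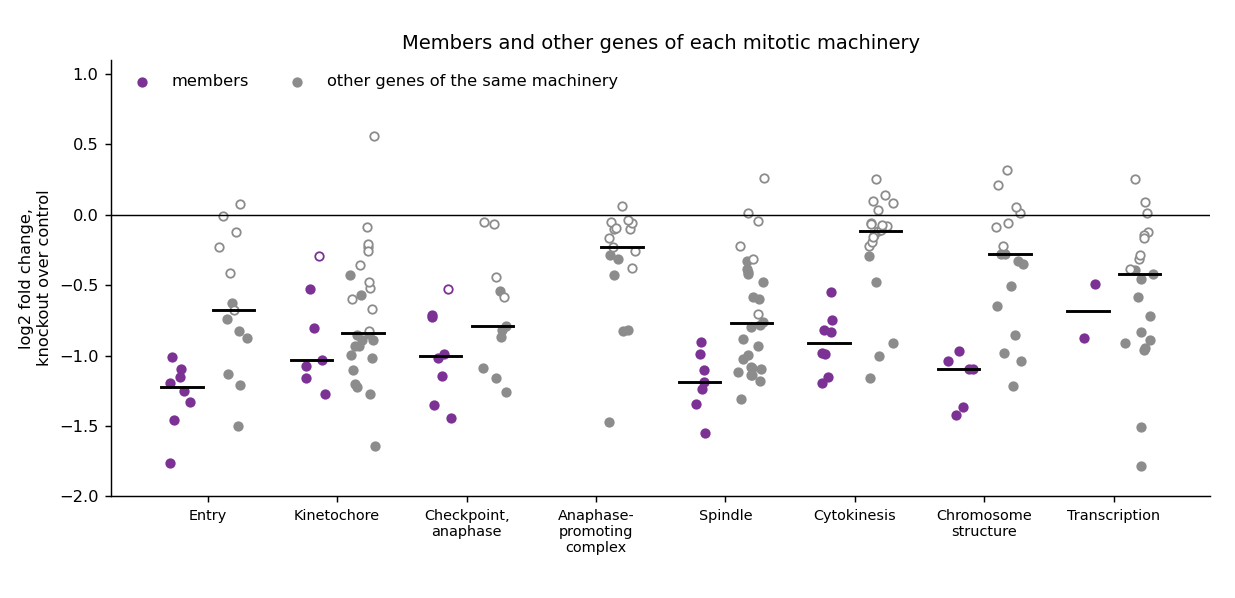
Log2 fold change (knockout over control) of members (purple) and of other genes of the same machinery (grey), with filled points for genes past an adjusted p of 0.05, open points for the rest and a bar at each median. The medians of the other genes lie nearer to 0, from -0.84 at the kinetochore to -0.11 in cytokinesis. Both kinds of list were chosen with earlier results of these data known, so the gap cannot be read as a trait of the members.

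Over these 153 other mitotic genes, 84 fell and none rose in edgeR (4 were higher at an unadjusted p under 0.05; DESeq2 called 1 higher, Zwint, and limma-voom 2, Zwint and Stag2), with a median log2 fold change of -0.46. The background of lower calls was 11.4%. For DNA replication, 19 of 20 S phase genes fell, with a median of -1.06 against -1.10 for the 50 mitotic genes. The mean log2 CPM of the mitotic genes minus that of the S phase genes was 0.18, 0.17, -0.01 and 0.10 in knockouts and 0.07, -0.08, 0.15 and 0.14 in controls, so the balance between both phases overlapped.

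Set side by side within each liver, the kinetochore, checkpoint, spindle and cytokinesis groups overlapped between genotypes in 5 of the 6 pairs compared. The mean log2 CPM of spindle genes minus that of cytokinesis genes was -0.27, -0.39, -0.43 and -0.23 in knockout livers and 0.04, -0.17, -0.07 and -0.02 in control livers. Every knockout value was below every control value, with means of -0.33 ± 0.09 and -0.05 ± 0.09 (SD, n = 4). For kinetochore minus cytokinesis the values were 0.39 to 0.60 in knockouts and 0.43 to 0.50 in controls, and for checkpoint minus cytokinesis -1.21 to -0.92 and -1.06 to -0.93. The other 3 pairs (kinetochore minus spindle, kinetochore minus checkpoint, spindle minus checkpoint) overlapped as well. These are descriptions of groups of 7 and 8 genes, with no test.

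Members with a TTTGAA match in the promoter window had a median log2 fold change of -1.10 (30 genes) and those without -1.01 (12 genes). For CCAAT the medians were -1.13 (30 genes) and -0.81 (12 genes). Birc5, with the second largest fall, and Pttg1 and Mybl2, with the third and second smallest, held neither motif as searched, nor did Cit, Mad2l1, Nuf2 and Nusap1. The absence of these letters from a window says nothing of the factors that bind there.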

How the data were processed

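The authors deposited whole-number read counts per Ensembl gene for 8 libraries. Reads were aligned with Rsubread 2.20.0 in R 4.4.1 (BiocManager 1.30.26), per the labels' protocols, and per the submitters' processing notes featureCounts gave the counts. The genome, written GRMm38 in the labels, was read as GRCm38. Annotation, strand setting and treatment of reads with several matches were not stated in any label or header. Members that overlap a gene on the other strand are therefore uncertain in the shared bases. Besides Ube2c, Kif20a and Kif4, such a gene covers 13.4% of the exon bases of Ncapg, 12.7% of Cdc25c, 12.5% of Ccna2 and 11.1% of Prc1. Smaller parts of Plk1, Cdca8, Nusap1, Cdc20 and Cdc25b are covered. Of 48440 genes, 48058 matched a GENCODE M21 symbol. Each library is labelled as a separate animal, and pairs of libraries within a group differed beyond sampling noise (chi-square per degree of freedom 11.9 to 21.8).

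Counts were tested with edgeR 4.0.16 (R 4.3.3): filterByExpr (minimum count 10, total 15), TMM scaling, robust quasi-likelihood F-test of genotype, Benjamini-Hochberg adjustment over all 18274 tested genes, threshold 0.05. SE is the log2 fold change divided by the square root of F. Log2 CPM use a prior count of 2. Alternatives used DESeq2 1.42.0 and limma 3.58.1. The comparison of knockout with control livers was also simulated 3 times on 17846 genes, 200 of them changed. Recovery was 21.9% at a 1.5-fold change, 59.7% at 2-fold and 86.9% at 4-fold. The members, role groups, marker lists and other gene lists were chosen with earlier results of these data known. Genes given with full values are Mki67, in each role group the member with the smallest adjusted p and that nearest 0, and members that missed the threshold; in the other lists, the 2 smallest p and the 2 nearest 0. Cdc25b, Cdc25c and others beyond that rule, and the partner ratios, were chosen after their values were seen. Promoter sequences are those of RefSeq (GRCm38.p6). Figures were drawn with matplotlib 3.10.9.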

Additional observations from a re-analysis of the deposited data

Results flagged for a closer look

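In 120 groups of 4 livers looked at (in each genotype, the 50 genes, Myo5b, and the means of the 8 role groups and of all 50 genes), 12 had 1 liver standing far from the other 3. Chance flags about 1 in 20 independent groups. These groups share the same livers and hold related genes, so their count cannot be set against that rate. Knockout 278 was the high liver in 5 of them. It had 41.2 CPM of Ccna2 (others 29.3 to 31.1), 35.1 of Cdc25b (21.1 to 22.6), 22.6 of Kif4 (17 to 17.2) and 22.2 of Ncapg (15.5 to 16.3), and its passenger complex genes had a mean log2 CPM of 4.62 (4.19 to 4.26). Control 280 was the low liver in another 5. It had 65.6 CPM of Ccna2 (others 87.5 to 90.3), 93.4 of Cenpe (124 to 129), 187 of Cenpf (238 to 244) and 82.3 of Kif11 (107 to 109), and its spindle genes had a mean log2 CPM of 5.13 (5.52 to 5.59). Erythroid markers were highest among knockouts in animal 278 and lowest among controls in animal 280, and their part in these values was not tested. Knockout 276 was low in Bub1, with 6.90 CPM (others 10.9 to 11.7), and knockout 277 in Cenpe, with 48.8 CPM (60.0 to 61.0).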

How the results depend on the processing

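No paired analysis was possible because the groups share no replicate number. Median-ratio scaling, a filter of 1 CPM in 4 libraries, no filter, non-robust dispersion, DESeq2, limma-voom, Y-linked expression as a covariate and library sizes without genes above 1% of counts changed no member's call. Upper-quartile scaling and library size alone lost Kif2c, and a minimum fold of 1.5 lost 13 of the 48. Omitting 1 library left 45 to 49 members lower, with 45 called in every omission. The member median ran from -1.16 to -1.02, group medians from -1.30 to -1.16 for entry, -1.28 to -1.14 for passenger, -1.04 to -0.94 for checkpoint, -1.13 to -0.97 for kinetochore, -1.27 to -1.11 for spindle, -0.98 to -0.82 for cytokinesis, -1.18 to -1.04 for chromosome and -0.75 to -0.64 for transcription genes, and Myo5b from -1.57 to -1.28. Of the other mitotic genes 71 to 87 were lower and 0 to 2 higher in these omissions. The higher calls among them were 1 under upper-quartile scaling, 2 by library size alone, 1 with no low-count filter, 1 with non-robust dispersion, 1 in DESeq2, 2 in limma-voom and 1 without knockout 278 and control 282, and the lower calls were 25 with the minimum fold. Library size alone shifted the median of all genes to 0.08, no low-count filter to -0.11 and DESeq2 to -0.11.

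With the erythroid covariate 0 members and 0 other mitotic genes were lower (9 and 14 at an unadjusted p under 0.05, for which the share of all genes was not counted). Medians were -0.51 for members, -0.69 for entry, -0.41 for passenger, -0.72 for checkpoint, -0.51 for kinetochore, -0.46 for spindle, -0.38 for cytokinesis, -0.40 for chromosome and -0.14 for transcription genes. Myo5b was -1.02 (SE 0.54) and not called. Espl1 (0.11), Kif2c (0.18), Nusap1 (0.25), Kif23 (0.36), Cit (0.063) and Mybl2 (0.34) reversed sign, each by less than its SE. The median SE was 0.34 in that fit against 0.14. In exact permutation tests of single genes (two-sided, chosen after seeing the data), 45 members reached 0.0286, the smallest p that 4 against 4 allows. Only genes whose groups do not overlap reach it, so these are the same 45 counted above and not a further check. Of all tested genes, 12.8% had every knockout value below every control value and 10.8% had every one above. Cdc25c, Kif2c, Mybl2 and Cenpa (0.0571 each) and Pttg1 (0.0857) missed the threshold in the permutation tests. Of these, Cenpa and Pttg1 had not passed in edgeR either. The share of members with a CHR match was 33.3% in the 250 bases before the start alone, against 18.3% of all genes, since the matches after the start drop out, and 85.7%, against 31.9%, with TTCGAA and TTTAAA added. The simulated recovery of 21.9% at 1.5-fold limits what can be said of genes not called. It was found with 200 of 17846 genes changed, whereas 20.7% of genes were called in the data, so the recovery here may differ.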
